A study of Rattus norvegicus with 12 samples.

Results

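Bpifb4 encodes a member of the BPI-fold family, lipid-binding proteins named after the bactericidal/permeability-increasing protein of neutrophils. It was followed across 3 ages in the rostral ventrolateral medulla (RVLM), a part of the brainstem that sets sympathetic outflow and with it blood pressure. The gene was taken by its current symbol, which found 1 probe of 41012 on the array and 1 gene of 18281. It was chosen by its measured level over the ages in these same animals, so its values are given as a description, without a test.

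RNA came from RVLM micropunches. The rats were males of the inbred F344 strain, with 3 animals in each group; the labels name no treatment. Young rats were 3 months old, middle-aged rats 12 months and aged rats 24 months. Per the labels, all rats were decapitated under isoflurane and the brains were frozen before punching. A punch holds all cell types of the region, so fewer cells of a type and less RNA per cell cannot be told apart. Replicate 3 of each age was hybridised to a pair of 1-colour arrays, which were averaged, so 12 arrays on 3 slides gave 9 animals.

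In people, a form of the BPIFB4 protein has been linked to long life. That protein is reported to be phosphorylated by the stress kinase PERK, to bind 14-3-3 proteins and the chaperone HSP90, and to raise the activity of endothelial nitric oxide synthase; it has also been tied to the chemokine CXCL12 and its receptor CXCR4. In the rat the gene was first described in the lining of the nose, under the name RY2G5 that the array still uses.

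The level of Bpifb4 rests on a single 60-base probe, at chr3:144250803-144250862 of the rat build rn3 per the array files. Whether that stretch lies in a coding exon or a UTR was not analysed here. It is shown with the probes of 3 family members from the same gene cluster. Only probes were compared with each other, and they can come from different parts of their transcripts. The transcripts of the relatives were not searched, so whether they share signal with the Bpifb4 probe was not tested. Capitals mark the longest run of bases that each of the other probes has in common with the Bpifb4 probe.
Bpifb4: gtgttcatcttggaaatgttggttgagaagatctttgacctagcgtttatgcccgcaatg
Bpifb3: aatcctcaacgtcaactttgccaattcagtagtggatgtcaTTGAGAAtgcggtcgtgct
Bpifa5: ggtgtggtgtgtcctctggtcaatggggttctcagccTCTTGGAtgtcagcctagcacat
Bpifb2: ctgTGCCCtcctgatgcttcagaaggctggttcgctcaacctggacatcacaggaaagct

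The runs shared with Bpifb3, Bpifa5 and Bpifb2 were 7, 7 and 5 bases long. Among all 41011 other probes the longest shared run was 14 bases, on 1 probe, for the autophagy gene Atg9a. The Bpifb4 probe has a GC content of 43.3%, and 1 of its 3 sense reading frames holds no stop codon.

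Bpifb4 was lowest in the young rats, higher in the middle-aged and highest in the aged, and no animal of one age overlapped another age. As read by the scanner software, its background-subtracted signal was 26.7 in young replicate 1, 39.1 in young replicate 2, and 15.1 and 16.6 on the arrays of young replicate 3. It was 100.6 in middle-aged replicate 1, 70.8 in middle-aged replicate 2, and 103.0 and 83.0 in middle-aged replicate 3. It was 172.0 in aged replicate 1, 135.8 in aged replicate 2, and 181.2 and 174.3 in aged replicate 3. The step with age is thus visible before any scaling between arrays. The software's own error on these signals was 10.1% to 17.6%, largest on an array of young replicate 3.

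Bpifb4 was well above background on all 12 arrays, saturated on 0 and an outlier spot on 0. Its signal in young rats was dim: the lowest signal that counted as well above background ranged from 9.90 to 12.15 over the arrays against 15.1 and 16.6 in young replicate 3.

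Levels were then set on a common scale, as log2 of the signal minus the 75th percentile of the array. On this scale Bpifb4 stood at −4.92, −4.03 and −5.34 in young replicates 1 to 3. The middle-aged animals stood at −2.94, −3.12 and −3.12, and the aged animals at −2.25, −2.19 and −1.94. The young animals were widely spread and the older ones lay close together.

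The group means were −4.76 ± 0.67 (SD, n = 3) in young, −3.06 ± 0.10 in middle-aged and −2.13 ± 0.16 in aged rats. As geometric means, Bpifb4 thus reached 3.68%, 12.0% and 22.9% of the 75th-percentile signal of its array. The lowest middle-aged animal lay 0.91 log2 units above the highest young one, and the lowest aged animal lay 0.69 above the highest middle-aged one. Of all 25434 items (genes, or probes without a gene name) tested on these arrays, 305, or 1.20%, had the 3 ages in this rising order with no overlap, and 103, or 0.405%, in the falling order.

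**Figure D1:**
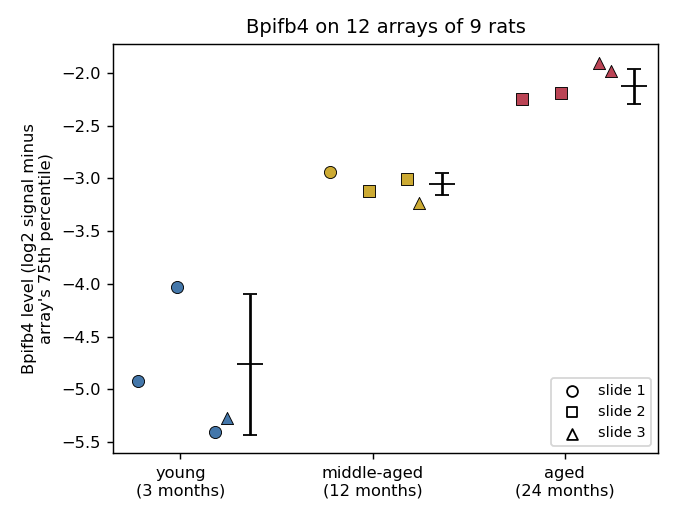
Level of Bpifb4 (log2 signal minus the 75th percentile of the array) on each of 12 arrays, by age, with the marker shape giving the slide; neighbouring pairs at replicate 3 are arrays of the same animal, and the bar is the group mean ± SD over 3 animals. Young arrays lie lowest and most spread (mean −4.76), middle-aged arrays between (−3.06) and aged arrays highest (−2.13).

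Between young and aged rats Bpifb4 differed by 2.64 ± 0.28 log2 units (standard error from limma, n = 3 per group), a 6.21-fold higher level at 24 months. This standard error is moderated by limma and pooled over the 3 ages. The pooled SD within groups was 0.40, against 0.67 in the young rats alone. The standard errors of both differences from young rats can thus be too small. Pairs of single animals gave 3.44-fold to 10.5-fold. This difference was 5th in size upward among 25434 items and 3rd among 12923 named genes, after 4.56 for the adhesion molecule gene Cdh1 and 2.68 for the melanosome transport gene Mlph. The median over all items was 0.03, and 258 items, or 1.01%, differed by 1 or more in either direction. All 3 aged animals lay above all 3 young ones for 14% of items.

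Between young and middle-aged rats the difference in Bpifb4 was 1.71 ± 0.28, or 3.26-fold, with pairs from 1.88-fold to 5.29-fold. It was 6th in size upward among named genes. Of all items, 6.74% had every middle-aged animal above every young one. Between middle-aged and aged rats the difference was smaller, 0.93 ± 0.28 or 1.90-fold, with pairs from 1.61-fold to 2.26-fold and 57th in size. This standard error too is pooled over the 3 ages, with the young rats the most spread. When single animals were left out it ran from 0.13 (without young replicate 2) to 0.33. For this comparison 10.4% of items had every older animal above every younger one.

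The middle-aged step made up 64.8% of the log2 difference in Bpifb4 between aged and young rats, and 53.7% (normexp) to 69.1% (without young replicate 2) over 20 alternatives. For the 400 items that rose between young and aged rats (limma, adjusted p under 0.05), this share had a median of 53.3% and quartiles of 39.6% and 64.3%. The 3 differences share their groups and are not independent of each other.

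The slides held the ages unequally, so the differences were also read within a slide. On slide 1, middle-aged replicate 1 exceeded the mean of the 3 young arrays by 1.85 log2 units (3.605-fold). On slide 2, aged rats exceeded middle-aged rats by 0.84 (1.79-fold). On slide 3, which alone held all ages but replicate 3 only, Bpifb4 was 3.33 higher in the aged than in the young animal (10.05-fold) and 2.04 higher in the middle-aged than in the young one (4.11-fold). The direction was the same on every slide that allowed the comparison. With slide as a block the differences were 2.54, 1.64 and 0.90.

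The arrays of 1 animal differed in Bpifb4 by 0.13 log2 units in the young rat, 0.23 in the middle-aged and 0.08 in the aged, or 1.097-fold, 1.17-fold and 1.06-fold. These technical differences were smaller than either gap between the ages. The spread of the young group, from −5.34 to −4.03, was larger than any of them. Over all items, 3 animals stood apart on the second principal component (21.7% of variance), namely young replicate 2, replicate 3 of the middle-aged and replicate 3 of the aged rats, at 24.35, 16.07 and 26.48 against −18.99 to 3.49 for the others. Without young replicate 2 the difference in Bpifb4 between aged and young rats was 3.00, and without replicate 3 of the aged rats it was 2.54. Leaving out replicate 3 of the middle-aged rats could not change this difference, which uses young and aged animals only. The array quality did not separate the ages, with 73.5% to 77.1% of spots well above background.

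The background correction and the constant added after it (the offset) changed the size of the difference and not its direction. The raw spot signal, before any subtraction, was 73.1 to 102.5 on young arrays, 139.0 to 171.9 on middle-aged arrays and 205.7 to 257.6 on aged arrays, over a local background of 38 to 47. With the normexp background correction and an offset of 50, the aged-young difference was 1.35 and the middle-aged-young difference 0.72. That offset, added to every spot, is larger than any background-subtracted young signal given above (15.1 to 39.1). With an offset of 1, an alternative chosen after seeing the data, the aged-young difference was 2.14. In 7 of 7 sets of values compared, from these corrections to the authors' own deposited values, the 3 ages kept their order without overlap. The 7 sets include the main values and all come from the same arrays, so they are not independent of each other.

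Bpifb4 sits in a cluster of its own family, and the array let few of its relatives be measured. In the order of the current RefSeq annotation (assembly GRCr8), the 5 nearest protein-coding genes before it are Bpifb3, Bpifb6, Bpifb2, Sun5 and Efcab8, and the 5 after it are Bpifa6, Bpifa2, Bpifa2f, Bpifa3 and Bpifa1. Of these 10 neighbours, 8 belong to the family, 7 had a probe and 2, Bpifb2 and Bpifa1, were detected, meaning well above background on every array of 1 or more ages. On rn3 the probes of Bpifb3 and Bpifb2 lie 28.4 kb and 71.7 kb before the Bpifb4 probe, and those of Bpifa2 and Bpifa1 lie 58.2 kb and 190.3 kb after it.

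Several of the nearest relatives were not detected. Bpifb3, Bpifa2 and Bpifa2f were well above background on 0 of 12 arrays. Bpifb6 was so on 1 array, that of aged replicate 1, at −4.71, with the other 8 animals between −8.50 and −8.05. For the neighbour Sun5, a sperm nuclear envelope gene outside the family, middle-aged replicate 1 stood at −2.02 and the other 8 animals between −8.31 and −6.32. A level below background is only a bound, so these probes do not say how far such genes changed.

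The whole family list held 16 genes besides Bpifb4, of which 11 had a probe. Bpifb1, Bpifb5, Bpifb9, Bpifa3 and Bpifa6 had none by name. Bpifc, Bpi, the founding member that binds bacterial endotoxin, and Lbp, the endotoxin carrier of serum, were each well above background on part of the arrays only. In Bpi this was 0 of 4 young, 3 of 4 middle-aged and 3 of 4 aged arrays. In Lbp it was 0, 2 and 0, and in Bpifc 1, 1 and 2.

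Of the 4 relatives that were tested, 1 rose and 0 fell between young and aged rats. That was Bpifa5, at −2.0, −1.87 and −1.90 in young, −1.77, −1.81 and −1.86 in middle-aged, and −1.62, −1.53 and −1.53 in aged rats. All aged animals lay above all others, and how many of all items did so was not counted. For the easier order of every aged animal above every young one, the share was 14% of all items. The difference was 0.36 ± 0.07 log2 units (limma, adjusted p = 0.037), against 2.64 in Bpifb4. Over all items tested in this comparison, 520, or 2.04%, passed at an adjusted p under 0.05, 1.57% of them upward and 0.472% downward as shares of all items. The call for Bpifa5 was lost in 15 of 22 alternatives, among them each of the 9 fits that leave out 1 animal, where the adjusted p ran from 0.055 to 0.129. With normexp its difference was 0.24 (limma adjusted p = 0.338).

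Of the other 3, Bpifa1, a secreted airway protein, differed by −0.42 ± 0.16 (limma adjusted p = 0.257). Its levels were −1.88, −2.07 and −1.72 in young, −2.05, −1.78 and −2.27 in middle-aged and −2.24, −2.55 and −2.14 in aged rats. Every aged animal thus lay below every young one, while aged and middle-aged animals overlapped. How many of all items separated downward in this way was not counted. Bpifb2 differed by −0.05 ± 0.10 (limma adjusted p = 0.840). The brighter probe of Pltp, a lipid transfer protein of plasma, differed by −0.09 ± 0.11 (limma adjusted p = 0.744). A second, dimmer Pltp probe went the other way, by 0.40, so the probes of this gene disagree. None of the 4 tested relatives passed between middle-aged and young rats, where 0.201% of all items did (0.161% upward and 0.0393% downward). None passed between aged and middle-aged rats, where 0.0118% of items did, all of them upward.

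**Figure D2:**
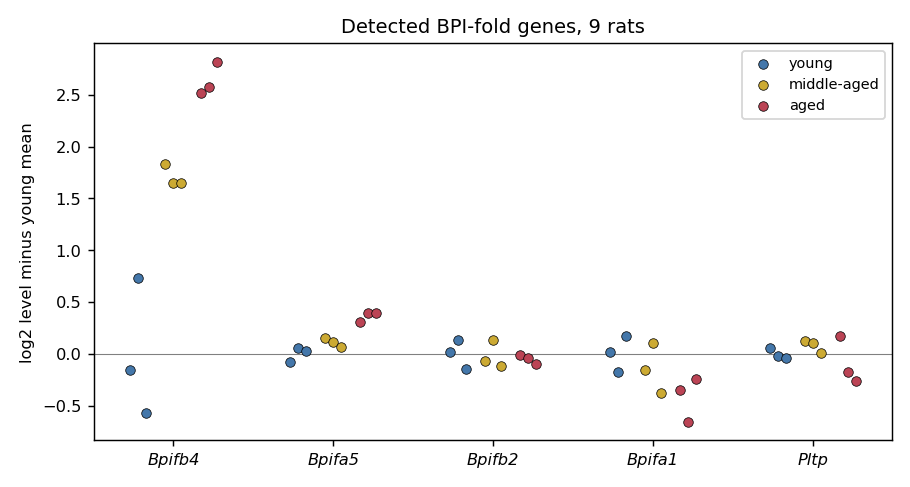
Level of Bpifb4 and of the 4 other family genes that were above background (for Pltp its brighter probe), as log2 level minus the mean of the young rats; each point is 1 of 9 animals, coloured by age. Bpifb4 spans from −0.57 in young to 2.82 in aged rats, while every point of the other genes lies within 0.66 of the young mean.

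Of the genes of the nitric oxide pathway around BPIFB4, none passed in any comparison. Of 20 tested, 0 rose and 0 fell between young and aged rats, and 2 had an unadjusted limma p under 0.05. Over all 25434 items, 3864 had such a p and 2.04% passed. The median difference of the 20 genes was −0.05, with a range of −0.24 to 0.25. The 3 with the largest differences were Prkca, a protein kinase C gene, at 0.25 ± 0.15 (limma adjusted p = 0.475), Cav1, the caveolin that holds endothelial nitric oxide synthase inactive, at −0.24 ± 0.11 (0.348), and Ywhaz, a 14-3-3 gene, at −0.18 ± 0.06 (0.214). Nos3 and Eif2ak3 are named for their role, after their values were seen. Nos3, the synthase itself, stood at −0.67, −0.87 and −0.78 in young and −0.65, −0.88 and −0.71 in aged rats, a difference of 0.03 ± 0.10 (limma adjusted p = 0.931). Eif2ak3, which encodes PERK, differed by −0.03 ± 0.12 (limma adjusted p = 0.937).

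The unfolded protein response downstream of PERK was measured by 14 genes. Of these 0 rose and 0 fell between young and aged rats, where 2.04% of all items passed. Their median difference between aged and young rats was 0.04. Nupr1, a stress-induced nuclear protein gene, differed by 0.33 ± 0.65 (limma adjusted p = 0.845), with young animals from −2.60 to 0.26 and aged animals from −1.78 to −0.55. Ppp1r15a, which reverses the PERK signal, differed by −0.25 ± 0.15 (0.453), and Trib3, a pseudokinase of the same branch, by 0.24 ± 0.11 (0.326). Aged and young animals overlapped in Nupr1 and Ppp1r15a. In Trib3 each aged animal lay above each young one, as in 14% of items.

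The CXCL12 axis held 3 tested genes, and 0 passed, where 2.04% of all items did between young and aged rats. Ackr3, the scavenging receptor for CXCL12, stood at −1.18, −1.65 and −1.36 in young and −1.79, −1.88 and −1.75 in aged rats. All aged animals lay below all young ones, and the difference was −0.41 ± 0.11 (limma adjusted p = 0.131). How many of all items had every aged animal below every young one was not counted. The middle-aged animals, at −1.89, −1.80 and −1.83, were as low as the aged ones. Cxcl12 itself differed by 0.26 ± 0.10 (limma adjusted p = 0.265) and Cxcr4 by −0.19 ± 0.15 (0.592). Ackr3 passed in the fit without young replicate 2, the library noted above for standing apart.

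Other genes linked to lifespan gave 0 rises and 0 falls among 21 tested between aged and young rats, where 2.04% of all items passed. Their median difference was 0.03, and 6 of the 21 had an unadjusted limma p under 0.05, against 3864 of all 25434 items. The largest difference among the 21 was that of Shc1, an adaptor whose p66 form is tied to oxidative stress, at 0.58 ± 0.21 (limma adjusted p = 0.240). Its aged animals stood at −2.53, −2.64 and −1.81 and its young animals at −2.86, −3.09 and −2.77, so aged replicate 3 was the highest. Apoc3, an inhibitor of plasma lipid clearance, differed by −0.41 ± 0.30 (limma adjusted p = 0.557), and Cdkn2a, a cell cycle inhibitor used as a marker of senescent cells, by 0.40 ± 0.15 (0.274).

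Over the 5 lists together, without Bpifb4, 62 genes were tested and 1, Bpifa5, passed between young and aged rats. In that comparison 13 of the 62 had an unadjusted limma p under 0.05, against 3864 of all 25434 items. The median absolute difference of the 62 genes was 0.12 log2 units, the same as over all items to this precision. Between middle-aged and young rats 0 of the 62 passed limma, with 3 at an unadjusted p under 0.05, against 1615 of all items. Between aged and middle-aged rats 0 passed limma, with 9 at an unadjusted p under 0.05, against 2724 of all items. The lists were put together with earlier results of these data known, and these counts support nothing about the lists as such.

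**Figure D3:**
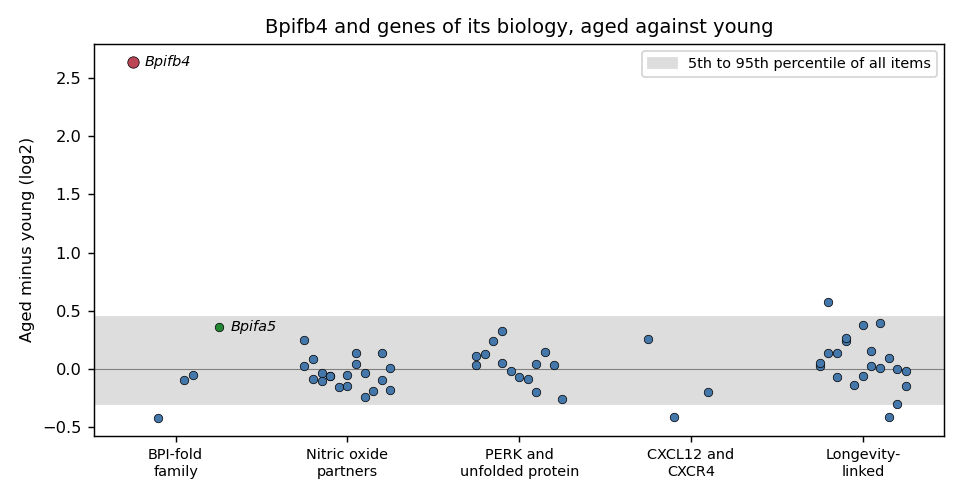
Difference between aged and young rats (log2) of Bpifb4 and of the 62 tested genes in 5 lists, 1 point per gene; the grey band runs from the 5th to the 95th percentile of all 25434 items (−0.30 to 0.44), and green marks the gene that passed limma at an adjusted p under 0.05. Bpifb4, drawn in red with no test, lies at 2.64, and the largest absolute difference among the other genes is 0.58.

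Markers of the cell types a punch can hold were read beside Bpifb4. The label of the region was matched by the catecholamine markers Th and Dbh, which were well above background on all 12 arrays; Pnmt, the enzyme that defines the adrenaline neurons, had no probe by name. The 6 tested markers of such neurons had a median difference of −0.31 between aged and young rats, with 0 rising and 0 falling. In this comparison 2.04% of all items passed, the share to set beside each marker list below.

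Microglial markers moved the same way as Bpifb4. All 10 were tested, and 8 rose and 0 fell between young and aged rats (limma, adjusted p under 0.05, against 1.57% of items upward); without any 1 animal, 6 to 8 rose. Their median difference was 0.95. Per animal, the list's median minus the young mean ran from −0.10 to 0.09 in young, 0.43 to 0.63 in middle-aged and 0.78 to 1.07 in aged rats. Trem2, a microglial lipid receptor, had the largest difference of them at 1.82 ± 0.12 (limma adjusted p = 0.00043). The part of microglia in the difference of Bpifb4 was not tested.

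Markers of blood cells were also at higher levels in aged rats. Those of red blood cells had a median difference of 0.88 over 6 tested genes; their per-animal median was −0.19 to 0.27 in young, −0.13 to −0.12 in middle-aged and 0.41 to 1.20 in aged rats. Of the 4 tested markers of neutrophils and monocytes 0 passed, with a median of 1.16 and a per-animal range of −0.25 to 0.41 in young, 0.32 to 0.97 in middle-aged and 0.82 to 1.68 in aged rats; Mpo, which defines neutrophil granules, was not detected at any age by that rule. The part of these cells in the difference of Bpifb4 was not tested.

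Epithelial cells of the airway and nose, where the gene was first described, left little signal. Of their 9 markers all had a probe and 3 were tested, with a median difference of 0.03 between aged and young rats and 0 rising or falling. Per animal, the median of those 3 minus the young mean ran from −0.14 to 0.02 in young, −0.07 to 0.06 in middle-aged and −0.23 to 0.23 in aged rats. The olfactory neuron marker Omp, the mucins Muc5b and Muc5ac, Cyp2f4, Cyp2a3 and Obp1f were below the threshold of detection. Ependymal and choroid plexus markers had medians of −0.08 and −0.15 over 5 tested genes each, again with 0 passing. Ttr, which defines the choroid plexus, was not detected either.

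Oligodendrocyte markers had a median of −0.45 over 8 tested genes, and those of meninges and fibroblasts a median of −0.57 with 0 of 7 passing. The medians were −0.11 for neurons, −0.02 for astrocytes and −0.08 for endothelial cells, with 0 passing in each. The part of these cells in the difference of Bpifb4 was not tested either.

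**Figure D4:**
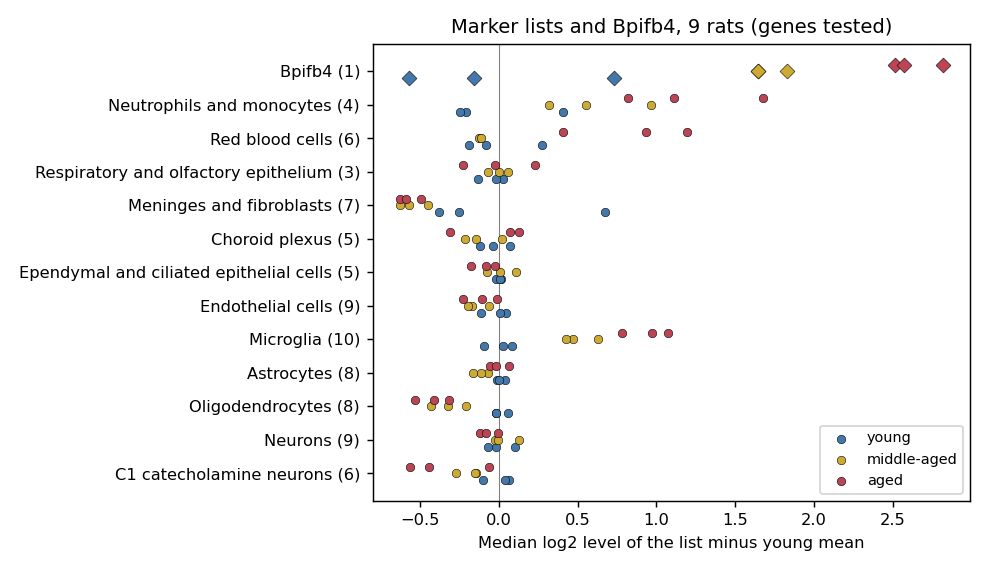
Median log2 level of each marker list minus its young mean (horizontal axis) for each of 9 animals, coloured by age, with the number of genes tested in brackets, and Bpifb4 as diamonds in the top row. Microglial markers reach 0.78 to 1.07 in aged rats, while red blood cell markers are higher in aged rats only and the epithelial lists stay around 0.

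Across the 9 animals, the levels of 12915 named genes were set beside that of Bpifb4. Pearson's r was 0.9 or more for 75 genes, or 0.581%, and −0.9 or less for 61, or 0.472%, around a median of 0.02. These are descriptions over 9 animals that share their arrays and their scaling, and a gene with the same order of ages can have a high r by that alone. The 10 most alike were Ptpn3, a tyrosine phosphatase gene (r = 0.984), Fmo2, a flavin monooxygenase gene (0.976), Batf, a transcription factor of lymphocytes (0.976), Arl11, a small GTPase gene (0.970), Hmox1, which encodes heme oxygenase (0.969), Skap2, an adaptor of leukocyte signalling (0.959), C8h11orf97 (0.957), Blnk, the B cell linker (0.957), Lefty2, a secreted inhibitor of Nodal signals (0.955) and Prr15 (0.954).

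The size of the change differed widely among them. Fmo2 was at −3.52, −2.71 and −3.28 in young, −2.20, −2.10 and −1.98 in middle-aged and −1.52, −1.61 and −1.15 in aged rats, a difference of 1.74 between aged and young. Batf was at −5.54, −4.92 and −5.75 in young, −4.72, −4.90 and −4.58 in middle-aged and −4.34, −4.15 and −4.12 in aged rats, a difference of 1.20. Both followed the order of the ages with no overlap, but Batf was well above background on only 2 of 4 young arrays, as was Lefty2. Skap2 differed by 0.30, Hmox1 by 0.40 and Ptpn3 by 0.67, so genes with a similar r differed in the size of the change. The remaining 5 lay between 0.88 for Prr15 and 1.62 for Arl11.

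These genes were picked on the same 9 animals, so their likeness within an age is part of what chose them and is given as a description. Bpifb4 was highest of the young rats in replicate 2 and lowest in replicate 3; among the 10 genes, 9 had replicate 2 highest and 6 had replicate 3 lowest. Over deviations from the group means, a comparison chosen after seeing the data, r was 0.92 for Batf, 0.79 for Ptpn3 and 0.43 for Blnk. Over the 6 middle-aged and aged animals alone, r was 0.93 for Fmo2 and Batf, 0.86 for Arl11, 0.83 for Hmox1 and 0.72 for Lefty2. All 10 genes had the 3 ages in order without overlap, as Bpifb4 did.

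The 5 genes most opposed to Bpifb4 were Rtkn2 (r = −0.994), Tril, an accessory of toll-like receptor signalling (−0.987), Ccne2, cyclin E2 (−0.972), Igf2bp2, an RNA-binding protein gene (−0.971), and Rhpn2 (−0.965; −0.69 over the 6 middle-aged and aged animals). Rtkn2 was at −1.88, −2.13 and −1.72 in young, −2.41, −2.43 and −2.40 in middle-aged and −2.56, −2.57 and −2.65 in aged rats. Among the young animals replicate 2 was lowest and replicate 3 highest, values that also entered its choice. Igf2bp2 had the largest difference of the 5, −1.88 between aged and young rats, of which 66.8% was present at 12 months, against 64.8% for Bpifb4.

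**Figure D5:**
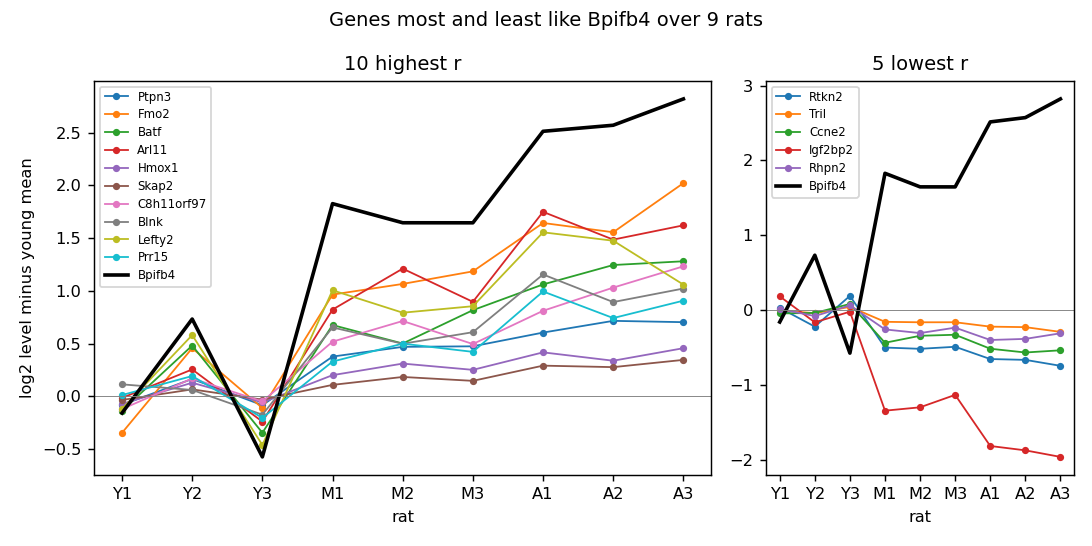
Level minus young mean (log2) in young (Y), middle-aged (M) and aged (A) rats 1 to 3 for the 10 named genes with the highest correlation with Bpifb4 (left) and the 5 with the lowest (right); lines join the animals only to show the pattern, and the thick black line is Bpifb4. The like genes step up with Bpifb4 to between 0.28 and 2.02 in aged rats, and the opposed genes step down, Igf2bp2 furthest.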

How the data were processed

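The array files give linear spot intensity, which the authors made with Agilent Feature Extraction 9.5.1.1, per the file headers and the submitters' processing notes; its processed signal is background-subtracted and detrended, with no scaling between arrays. The deposited series matrix holds a score with mean 0 and SD 1 per array, column medians from −0.0442 to −0.0147, whose log base and filter are not known; it served as an alternative. All 43379 non-control spots were used except 57 to 140 outliers per array. Signals were taken as log2 minus the 75th percentile, and both arrays of replicate 3 were averaged. The files also hold the software's p-value that a spot equals its background, as deposited, and a well-above-background flag. Probes with that flag on all arrays of 1 or more ages were kept (29797), named through RefSeq or the file, 23372 of 41012 probes having a name; each gene kept its brightest probe. All 9 animals were fitted together with limma 3.58.1 in R 4.3.3 with Benjamini-Hochberg adjustment over 25434 items; rose and fell mean an adjusted p under 0.05. The number of arrays limits the precision.

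Bpifb4, the lists and the tests were chosen with earlier results of these data known. Genes were named by rule: all Bpifb4 probes and neighbours, the whole family, list members that passed or else the 3 with the largest aged-young difference per list, and the 10 highest and 5 lowest correlations with Bpifb4 among named genes. Each list of cell type markers is given once. Calls for single members of 2 marker lists are not reported here. Alternatives covered background correction, scaling, filter, probe choice, slide, replicate number and leaving out animals. Tests were tried on simulated data.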

Additional observations from a re-analysis of the deposited data

How the results depend on the processing

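The difference of Bpifb4 kept its direction under every alternative run. Between aged and young rats it was 1.35 with normexp at an offset of 50, 2.14 at the offset of 1 added after seeing the data, 3.33 on slide 3 alone, and 2.35 to 3.00 when single animals were left out (lowest without young replicate 3, highest without young replicate 2). Between middle-aged and young rats it was 0.72 with normexp and 1.42 to 2.07 without single animals; between aged and middle-aged rats it was 0.62 to 1.29 over all alternatives and 0.84 to 0.99 without single animals. The first 2 differences rest on the dim young signal, and their size changed with the background correction and its offset. The count of 1 list gene that passed between aged and young rats was 0 with normexp, median scaling, the series matrix, all probes unfiltered, the replicate block and only the groups compared, and 0 to 1 without single animals; without young replicate 2 the 1 gene was Ackr3. The cause was not tested. The counts of 0 in the other comparisons stayed at 0. Replicate numbers did not pair the animals (correlations of deviations from −0.41 to 0.37). With the replicate number as a block, 356, 8 and 0 items passed. That block could not change the differences of Bpifb4 (2.64, 1.71 and 0.93), since each age held replicates 1 to 3. The counts over all items, 520, 51 and 3 in the order aged against young, middle-aged against young and aged against middle-aged, were 309, 23 and 7 with normexp, 288, 5 and 0 with no filter, 327, 18 and 1 with slide as a block, 343, 3 and 1 with only the groups compared, 617, 62 and 13 with a trended robust prior, 625, 75 and 26 with 12 arrays, and 491, 33 and 0 with the series matrix; the last was 1 with quantile or median scaling. Without single animals they were 271 to 510, 2 to 26 and 0 to 4. No correlation with Bpifb4 changed sign, and 6 of 225 moved by over 0.1, to 0.71 for Batf and 0.81 for Lefty2 with normexp and, over the 6 middle-aged and aged animals (added after seeing the data), to −0.69 for Rhpn2, 0.72 for Lefty2, 0.83 for Hmox1 and 0.86 for Arl11. The alternative of slide 3 alone gave no list counts, since it leaves 1 animal per age.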
